A study of Drosophila melanogaster with 42 samples.

Results

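The 418 intergenic Trr peaks of adult intestinal stem cells (ISCs) of Drosophila melanogaster are described here. They are the Trr peaks that shared 0 bp with any annotated gene body, and they made up 8.64% of the 4840 Trr peaks (95% Wilson interval 7.88 to 9.46%). The other 4422 peaks shared at least 1 bp with a gene and are called genic. Gene bodies were those of all 17684 RefSeq genes, of every type, on X, chromosome 4, and both arms of chromosomes 2 and 3 (genome release 6). Positions alone chose the peaks, and no measured level entered the rule.

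The study used targeted DamID-seq, in which a bacterial DNA adenine methyltransferase (Dam) is fused to a chromatin protein and marks the GATC sites the protein comes near. The Trr profile came from 3 samples of esg-gal4ts NREGal80>UAS-DamTrr guts and was called against 3 samples of esg-gal4ts NREGal80>UAS-Dam guts, which express Dam alone. The Kismet (DamKis), RNA Pol II (DamPolII), Brahma (DamBrm), Polycomb (DamPolycomb), HP1 (DamHP1) and histone H1 (DamH1) profiles also had 3 samples each with the same driver. Each sample pooled 60 guts of flies raised at 18°C and moved at 3 days of age to 29°C for 1 day. The esg driver is active in ISCs and in their enteroblast daughters, and NRE-GAL80 blocks it where Notch signalling is on, so that expression is limited to ISCs. No cell sort stood behind the label, and peak lists hold no expression marker by which it could be checked. On 2 HP1 and 2 H1 samples the genotype labels read DamHP2, DamHP3, DamH2 and DamH3, while the sample titles name HP1 and H1 throughout. The Dam-only samples used for Trr were not those used for any of the other 6 fusions, whereas Kismet and RNA Pol II shared all of theirs. Peaks were called once per fusion over all its samples and carry no score, so no spread between replicates exists. The intervals below cover counting error over peaks only, and neighbouring peaks are not independent, which makes them too narrow by an unknown amount.

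Trr (trithorax-related) is the Drosophila counterpart of the mammalian MLL3 and MLL4 enzymes, and mono-methylates lysine 4 of histone H3, a modification typical of enhancers. Enhancers often lie at a distance from the promoter they act on, in introns or between genes. Kismet is a chromodomain remodeler of the CHD family, Brahma is the ATPase of the SWI/SNF remodeling complex, Polycomb binds methylated lysine 27 of histone H3 in silenced developmental genes, and HP1 binds methylated lysine 9 in heterochromatin.

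The intergenic Trr peaks were short and few for the space open to them. Their median length was 461 bp, with quartiles of 238 and 931.8 bp and a range of 8 to 10786 bp. The genic peaks had a median of 684.5 bp and reached 18805 bp, and a rule that asks for no contact with a gene favours short peaks. Intergenic DNA, 30.5% of the genome considered, contained 15.7% of the base pairs in Trr peaks, while the 418 peaks themselves amounted to 314631 bp, or 5.76% of Trr-bound DNA. The rest of the Trr-bound intergenic DNA belonged to 1133 genic peaks that ran across a gene edge. The intergenic share was 9.84% of Kismet peaks, 5.35% of RNA Pol II peaks, 15.2% of Brahma peaks, 30.5% of Polycomb peaks and 25.4% of HP1 peaks, so Trr stood between RNA Pol II and Kismet.

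At the boundary set by the rule, 9 intergenic peaks lay within 10 bp of a gene and 1 of them abutted it. On the other side, 10 genic peaks crossed a gene edge by 10 bp or less. Of the 9, 4 touched Kismet and 6 touched RNA Pol II, and of the 10 the numbers were again 4 and 6.

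Most intergenic Trr peaks were close to a gene, and closer than intergenic DNA as a whole. The median distance from peak to nearest gene was 856 bp (quartiles 248.5 and 3128.5 bp), against a median of 3586 bp over all intergenic bases. Each peak was measured from its nearer edge and each base as a point. The measures are therefore not alike, and a peak counts as closer than the bases it covers. Within 500 bp of a gene lay 160 peaks, which were 38.3% of the peaks in 16.4% of intergenic bases. Beyond 10000 bp lay 22 peaks, or 5.26% in 26.5% of the bases. The median rose to 1569.5 bp when only protein-coding genes were counted as neighbours. Median distances of the intergenic peaks of the other proteins were 1814 bp for Kismet, 1706 bp for RNA Pol II, 1307 bp for Brahma, 2881 bp for Polycomb and 6576 bp for HP1.

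**Figure D1:**
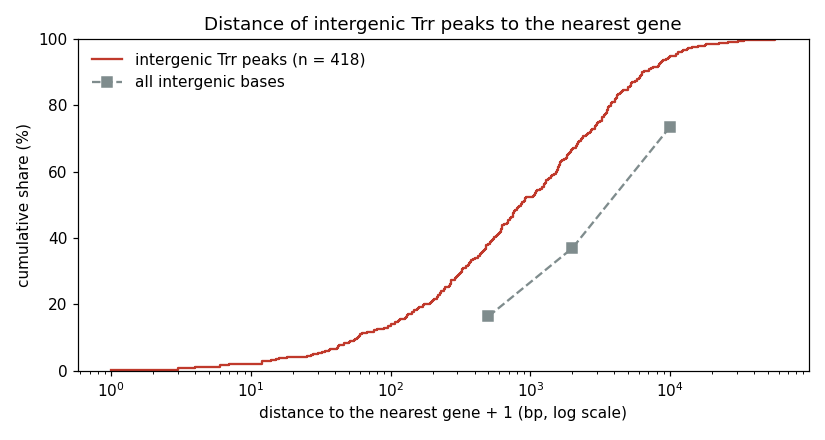
Cumulative share of the 418 intergenic Trr peaks (line) and of all intergenic bases (squares, at 500, 2000 and 10000 bp) by distance to the nearest gene, on a log axis in bp with 1 added. The peaks, measured from their nearer edge, lie to the left of the bases, with 38.3% of peaks and 16.4% of bases within 500 bp.

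The peaks occupied few of the stretches between genes. Of 12192 gaps between gene bodies, 305 (2.50%) held an intergenic Trr peak. These gaps had a median length of 4733 bp against 466 bp for all gaps. Gaps of 5000 bp or more held 253 peaks, or 60.5%, and made up 80.2% of intergenic bases. A single peak was found in 242 gaps, 33 gaps held 2, and 30 gaps held 3 or more, with 110 peaks between them and at most 7 in a gap. A peak filled a median of 8.36% of its gap.

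Arm 3L, singled out after its value was seen, carried the most intergenic Trr peaks. There, 129 of 972 Trr peaks were intergenic (13.3%, interval 11.3 to 15.5%), compared with 289 of 3868 (7.47%) elsewhere, which is given as a description. The share was 7.16% on 2L, 8.14% on 2R, 7.76% on 3R and 6.42% on X. Chromosome 4 had 5 intergenic peaks of 20, with an interval of 11.2 to 46.9%. Intergenic DNA was also a larger part of 3L (35.4%) than of any other arm (16.7 to 32.9%). Per megabase of intergenic DNA, 3L had 13.0 peaks, the arms 2L, 2R, 3R and X had 7.51 to 10.9, and chromosome 4 had 23.4. The first 1 Mb of 3L held 25 intergenic peaks of 75, and the share over the rest of the arm was 11.6%. On X the peaks lay closer to genes, with a median distance of 442 bp against 1542 bp on 3L.

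**Figure D2:**
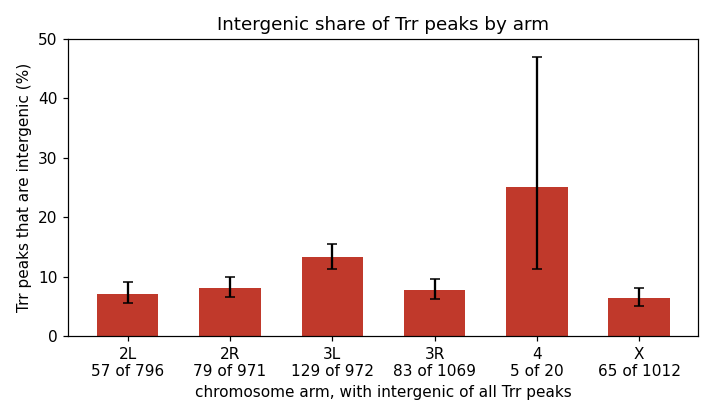
Share of Trr peaks that are intergenic on each chromosome arm, in percent, with 95% Wilson intervals as bars and the counts under each arm. Arm 3L stands at 13.3% and the other large arms at 6.42 to 8.14%, and chromosome 4 rests on 20 peaks.

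The comparison with the other lists asked which chromatin proteins accompany Trr away from genes. Kismet was the most frequent companion. Of the intergenic Trr peaks, 353 (84.4%, interval 80.7 to 87.6%) touched a Kismet peak by at least 1 bp, and the share over all Trr peaks was 81.2%. The genic peaks were at 80.9%, and the difference of 3.51 points had an interval of -0.438 to 6.89, which includes 0. It was 0.734 points without arm 3L (-4.32 to 5.02). With all Trr peaks sorted into 5 classes of equal size by length, the difference pooled within classes was 8.07 points (4.57 to 11.6, Mantel-Haenszel). The intergenic share rose from 70.2% in the shortest class to 96.1% in the longest, and the genic share from 62.4 to 98.6%. Kismet peaks covered 89.7% of the base pairs in intergenic Trr peaks and wholly contained 324 of them (77.5%, against 68.3% of genic peaks). This contact was not always local to the gap, since for 232 of the 353 the Kismet peak ran on into a gene and for 121 it did not. Kismet occupied 6.56% of all intergenic bases and 14.5% of genic bases.

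RNA Pol II was less common at the intergenic peaks than at the genic ones. It was touched by 277 of them (66.3%, interval 61.6 to 70.6%), while the share over all Trr peaks was 84.4%. Genic peaks reached 86.1%, so the difference was -19.8 points (-24.6 to -15.3). Among genic peaks, those across a gene edge touched RNA Pol II in 92.3% of cases and those inside gene bodies in 83.9%. By arm, the intergenic share ran from 58.2% on 2R to 80.0% on chromosome 4 and was below the genic share on all arms but chromosome 4, where both were 80.0%. In the 5 length classes the difference was -23.5, -18.4, -16.1, -3.93 and -4.36 points from the shortest class to the longest, and only the interval of the class at -3.93 includes 0. For 159 of the 277 the RNA Pol II peak did not reach any gene, so that RNA Pol II too was called in the gap itself. RNA Pol II covered 4.83% of intergenic and 12.2% of genic bases.

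In combination, Kismet without RNA Pol II was the state most enlarged outside genes. It held 97 intergenic peaks, or 23.2%, against 8.41% of genic peaks, a difference of 14.8 points (10.9 to 19.1). RNA Pol II without Kismet showed the opposite, with 21 peaks, or 5.02% against 13.5% (-8.52 points, -10.5 to -5.81). Both were touched by 256 peaks (61.2% against 72.5%) and neither by 44 (10.5% against 5.52%, 5.01 points, 2.32 to 8.38). The leading exact combinations were Kismet and RNA Pol II alone (174 peaks), Kismet alone (59) and Kismet, RNA Pol II and Brahma (58).

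Brahma was touched by 97 intergenic peaks (23.2%, 19.4 to 27.5%), with 20.8% over all Trr peaks and 20.5% of genic peaks. The difference of 2.67 points had an interval of -1.31 to 7.11, and within the length classes it was 5.11 points (0.946 to 9.28). Brahma peaks are short, and a median of 47.7% of the touching Trr peak lay inside them. For 30 of the 97 the Trr and Brahma peaks nevertheless had the same start and end, and for 94 the Brahma peak touched no gene.

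**Figure D3:**
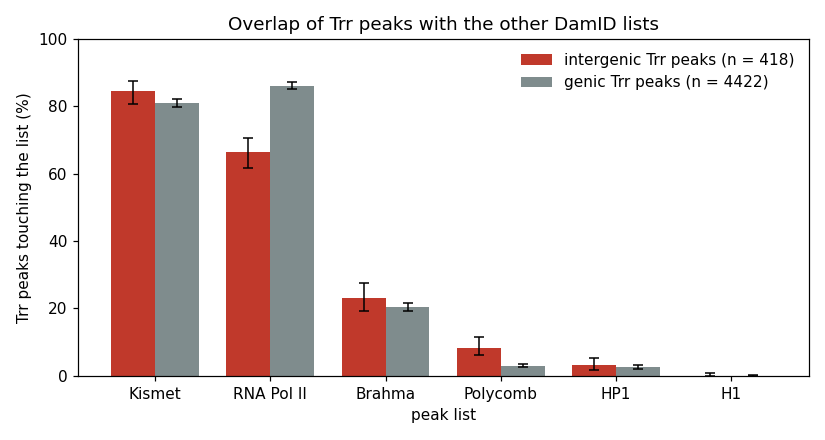
Percent of intergenic (red, n = 418) and genic (grey, n = 4422) Trr peaks that touch a peak of each other list by at least 1 bp, with 95% Wilson intervals. RNA Pol II is lower (66.3 against 86.1%) and Polycomb higher (8.37 against 3.05%) at intergenic peaks.

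Polycomb contact was rare but more frequent outside genes. It was found at 35 intergenic peaks (8.37%, 6.08 to 11.4%), with 3.51% over all Trr peaks and 3.05% of genic peaks, a difference of 5.32 points (2.96 to 8.41). Polycomb also covered more of intergenic than of genic DNA (5.56 against 3.19% of bases). On the 5 large arms the intergenic share was 4.82 to 12.7% and each time above the genic share of the same arm, while on chromosome 4 no intergenic peak touched Polycomb. In base pairs, 6.27% of the intergenic Trr peaks and 1.25% of the genic ones lay in Polycomb peaks. Of the 35, 19 lay wholly inside a Polycomb peak and 6 shared no more than 4 bp with one, the length of 1 GATC site. Kismet was touched by 29 of the 35 and RNA Pol II by 18.

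Several of these Polycomb-touching peaks lay in the regions of known regulator genes, which were picked out after their values were seen. A stretch of 2R around Psc and Su(z)2, which encode related subunits of Polycomb complexes, held 5, all wholly inside Polycomb peaks and none in contact with RNA Pol II. Those at 2R:13026328-13026933 and 2R:13032807-13033233 lay in the gap between Su(z)2 and CG13323, at 18416 and 24895 bp from Su(z)2. Both were also wholly inside Kismet peaks. The other peaks of the stretch, of 390, 1123 and 167 bp, had 252, 4 and 0 bp in Kismet. Upstream or downstream could not be assigned, as gene strands were not in the annotation used. A peak of 646 bp lay 321 bp from bnl, which encodes an FGF ligand, and was wholly covered by Polycomb, Kismet and RNA Pol II. Beside upd1, a ligand of the JAK-STAT pathway, a peak of 749 bp (X:18293494-18294242) was wholly in Polycomb and in Kismet and free of RNA Pol II. It lay 11111 bp from upd1, the flanking gene on one side, and 434 bp from lncRNA:CR15061 on the other side.

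HP1 was touched by 13 intergenic peaks (3.11%), with 2.67% over all Trr peaks and 2.62% of genic peaks (0.487 points, -0.896 to 2.67). It covered 18.8% of all intergenic bases, but mostly far from genes. At 0 to 500, 501 to 2000, 2001 to 10000 and over 10000 bp from a gene it covered 2.84, 5.34, 9.58 and 52.0% of bases. The intergenic Trr peaks in these classes touched HP1 in 3.75, 2.52, 2.56 and 4.55% of cases. Of the 13, 4 shared no more than 4 bp with HP1. The 5382 bp peak between inc and Mur2B (X:1517861-1523242), which was among the 10 longest, had 5359 bp in both HP1 and Polycomb and none in Kismet or RNA Pol II. No intergenic Trr peak touched H1, against 0.0413% of all Trr peaks. A count of 0 in 418 allows a share of up to 0.718%, taken as 3 counts of the total, and the upper Wilson limit is 0.911%.

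No other list was touched by 35 intergenic peaks, or 8.37% against 4.64% of genic peaks. They had a median length of 240 bp and a median distance to a gene of 216 bp, and lay on each arm except chromosome 4.

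The companions of Trr changed with distance from genes. Kismet was touched by 69.4% of the intergenic Trr peaks within 500 bp of a gene, 89.9% of those at 501 to 2000 bp, 96.6% at 2001 to 10000 bp, and all 22 beyond 10000 bp (interval 85.1 to 100%). Over all intergenic DNA the course was the reverse, with Kismet on 11.3, 9.68, 6.04 and 1.92% of bases in the same classes. RNA Pol II remained between 61.9 and 71.4% of Trr peaks in all 4 classes, while its cover of bases fell from 17.5 to 0.594%. Brahma was at 17.5, 21.0, 33.3 and 22.7% of peaks.

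Split at 1000 bp, 161 of 219 nearer peaks (73.5%) and 192 of 199 farther peaks (96.5%) touched Kismet, a difference of -23.0 points (-29.4 to -16.5). For RNA Pol II the shares were 63.9 and 68.8% (-4.92, -13.8 to 4.15). For Brahma they were 18.3 and 28.6% (-10.4, -18.4 to -2.26). The farther peaks were also longer, and the part of length in the Kismet difference was not tested beyond its values by length class. The difference was -27.9, -27.1 and -18.6 points in the 3 classes of shorter peaks, with intervals that exclude 0. In the 2 classes of longer peaks it was -3.23 and -12.5 points with intervals that include 0. For Brahma the difference was -9.53, -4.17, 4.11, -10.2 and -32.1 points from the shortest class to the longest. Only the interval of the longest class excluded 0 (-53.1 to -2.73, 16 nearer and 35 farther peaks). On the 5 large arms the farther peaks touched Kismet in 93.3 to 100% of cases and the nearer ones in 66.0 to 87.0%. The 7 peaks beyond 1000 bp without Kismet were 25 to 284 bp long. Kismet and Trr were called against different Dam-only samples.

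**Figure D4:**
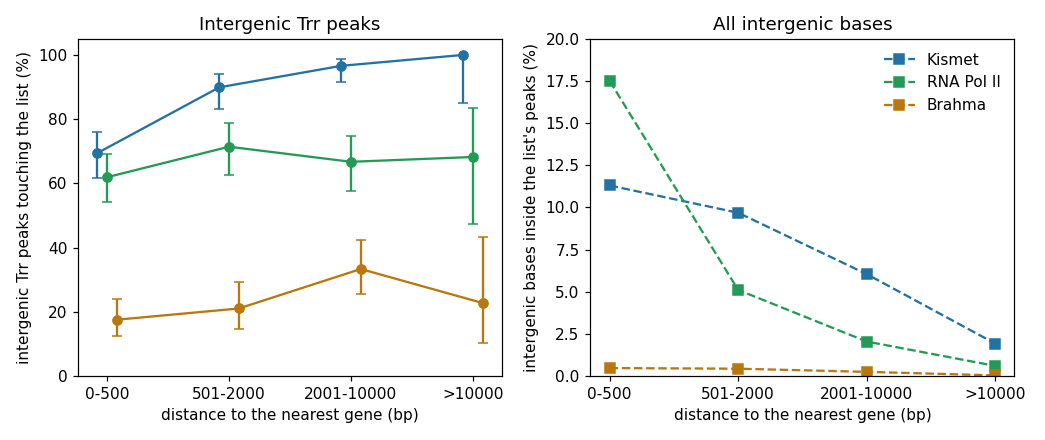
Left, percent of intergenic Trr peaks that touch Kismet, RNA Pol II or Brahma peaks by distance to the nearest gene, with 95% Wilson intervals (n = 160, 119, 117 and 22 peaks). Right, percent of all intergenic bases inside peaks of the same 3 proteins. Kismet rises from 69.4 to 100% of Trr peaks while its cover of bases falls from 11.3 to 1.92%.

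The nearest genes were often long noncoding RNA genes. The nearest gene was protein-coding for 301 peaks (72.0%) and an lncRNA gene for 104 (24.9%). Of the genes next to any gap, 84.3 and 10.2% belonged to these types. These shares are not like for like. The former count peaks, so that a gene nearest to several peaks enters several times, and the latter count each gene once. Gaps with a peak were also longer than gaps in general (median 4733 against 466 bp). In all 328 genes were nearest to a peak, of which 272 were nearest to 1 only.

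Genes beside the Trr-bearing gaps more often had Trr and Kismet in their bodies. There were 588 such genes, or 3.33% of all genes. Trr peaks were in 188 of them (32.0%), against 21.5% of the 13757 genes beside other gaps (10.5 points, 6.80 to 14.4), and in 20.5% of all genes. Kismet peaks were in 54.1 against 22.4% (31.7 points, 27.6 to 35.7; 23.5% of all genes). Many Kismet peaks at intergenic Trr peaks reached into a gene, so these 2 counts overlap in part by construction. RNA Pol II peaks were in 48.8 against 44.0% (4.80 points, 0.691 to 8.91; 41.5% of all genes), and among protein-coding genes the interval of the difference was -1.20 to 8.26. Brahma was in 14.8 against 6.03% (5.95% of all genes) and Polycomb in 14.3 against 5.26% (5.21% of all genes). Genes beside the Trr-bearing gaps had a median length of 2259 bp and the others of 1942 bp. Among protein-coding genes the medians were 3256 and 2289.5 bp. The Trr-bearing gaps were also longer, with a median of 4733 bp against 466 bp for all gaps. The part of gene length and of gap length in these values was not tested. The intergenic peaks that touched RNA Pol II had a flanking gene with RNA Pol II in 221 of 277 cases (79.8%), and those that did not in 88 of 141 (62.4%, interval 54.2 to 70.0%).

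Stem cell and progenitor regulators were the list with most members beside an intergenic Trr peak. Of its 15 genes, 5 flanked such a gap (33.3%, where 3.33% of all genes did). The list was also rich in genes with Trr in the body (60.0%, against 20.5% of all genes). The transcription factor gene esg, which maintains ISCs and gives its name to the GAL4 driver used here, had no Trr peak in its body. It had an intergenic peak of 1592 bp (2L:15331914-15333505) 360 bp away, wholly inside Kismet and RNA Pol II peaks. A peak of 680 bp lay 711 bp from Sox21a, an HMG-box factor of progenitors, and Trr was also in the gene body. The gap beside Sox100B held a peak of 1921 bp at 1254 bp from that gene and 867 bp from dco, with 180 bp in Polycomb. A 387 bp peak lay 1262 bp from ttk, a repressor of enteroendocrine fate. The gene zfh2, a zinc finger homeodomain factor gene on chromosome 4, had 3 peaks of 309, 540 and 1377 bp at 796, 3514 and 4967 bp. Each of the 7 peaks in these 5 gaps lay wholly inside both Kismet and RNA Pol II peaks, and none touched Brahma or HP1.

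Genes of 4 signalling pathways were also found beside intergenic Trr peaks, at shares of 7.69 to 12.5% of each list where 3.33% of all genes qualified, and these shares were not tested. For the EGFR pathway 2 of 21 genes qualified (9.52%). They were aop, an ETS-domain repressor, with a peak of 810 bp at 832 bp, and sty, a feedback inhibitor of receptor tyrosine kinases, with peaks of 658 bp at 129 bp and 646 bp at 5843 bp. For the Notch pathway 2 of 18 did (11.1%), fng, whose product modifies the Notch receptor (272 bp at 11 bp), and E(spl)m5-HLH, a Notch target (200 bp at 1864 bp, Kismet without RNA Pol II). For the Wingless pathway 1 of 13 did (7.69%), the receptor gene fz3, with peaks of 213 bp at 641 bp and 2818 bp at 1007 bp. For the JAK-STAT pathway the single gene of 8 (12.5%) was upd1, described above.

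Among nuclear receptors and ecdysone response genes, 3 of 23 flanked an intergenic Trr peak (13.0%, against 3.33% of all genes). A 1443 bp peak lay 35 bp from Eip75B, a 1248 bp peak with 540 bp in Polycomb lay 1549 bp from Eip78C, and a 181 bp peak lay 1618 bp from Hr38. All 3 are nuclear receptor genes. They also had Trr in the gene body, as did 56.5% of this list and 20.5% of all genes. None of the 12 Hippo pathway, 15 enteroendocrine, 11 enterocyte, 5 GATA, 8 Hox, 16 Trr complex and trithorax group and 17 cell cycle genes was beside such a gap, which 3.33% of all genes were. With 5 to 23 genes in each list a single gene moves a share by several points, and nothing particular to a list was read from these counts.

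The longest intergenic Trr peaks were mostly embedded in Kismet and RNA Pol II. The longest, of 10786 bp (3L:109015-119800), lay between CG12483 and lncRNA:CR45401 and wholly inside peaks of both. The next, of 5478 bp (2R:22677138-22682615), was 2339 bp from Ppa and likewise inside both, with 217 bp in Brahma. A peak of 3609 bp beside 18w, a Toll family receptor gene (2R:20125133-20128741), was inside both as well. In contrast, the 3182 bp peak 8653 bp from Eip93F, an ecdysone-induced regulator gene (3R:21937279-21940460), was wholly inside Kismet and had 0 bp in RNA Pol II. The peak of 3379 bp beside CG9932 (2L:13069015-13072393) had 3340 bp in Kismet and 4 bp in RNA Pol II. The remaining long peaks were 4592 bp (3R:5031820-5036411, nearest lncRNA:CR46352), 4490 bp (3L:11350226-11354715, nearest lncRNA:CR45251), 3604 bp (3L:8694452-8698055, nearest lncRNA:CR44526) and 3102 bp (3L:3388277-3391378, nearest lncRNA:CR45737), each with contact to Kismet and RNA Pol II.

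The 5 most distant peaks were 40 to 790 bp long. Distant peaks were not short as a class. The 22 peaks beyond 10000 bp had a median length of 488.5 bp, against 326 bp for those within 500 bp of a gene. The 3 farthest lay in 1 gap of 245765 bp on 2R between Pld, a phospholipase D gene, and lncRNA:CR46075. The 42AB cluster of Piwi-interacting RNA precursors is known to lie in this stretch. The farthest, of 231 bp (2R:6311890-6312120), was 56623 bp from Pld and touched Kismet alone. The peak at 41120 bp from lncRNA:CR46075 was 40 bp long and touched Kismet and RNA Pol II. That at 33706 bp was 305 bp long and lay wholly inside Kismet, Polycomb and HP1 peaks. The gap had 4 peaks that filled 0.345% of it, and HP1 covered 25.8%. The next 2 were 790 bp at 30394 bp from CG43245 on 3L, inside Kismet and RNA Pol II, and 456 bp at 25998 bp from Best4, between it and Tollo, another Toll family receptor gene, inside Kismet alone.

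Contact with 4 other lists was the most that any intergenic Trr peak had, and some of these contacts were of 4 bp, a single GATC site. The 5 longest such peaks were the 4490 and 3604 bp peaks above, 1152 bp at 442 bp from Atf3 (X:1241146-1242297), 487 bp at 13597 bp from tRNA:Ile-TAT-1-2 (3L:784060-784546) and 310 bp at 3693 bp from lncRNA:acal (2R:10550954-10551263). The contact was of 4 bp for Polycomb in the Atf3 peak, for Brahma and Polycomb in the tRNA:Ile-TAT-1-2 peak, and for HP1 in the lncRNA:acal peak.

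Clusters of peaks stood out at a few loci. The gene nearest to most peaks was lncRNA:CR44526, with 7, all in contact with Kismet and RNA Pol II. It lies on 3L next to hry (hairy), a bHLH transcriptional repressor gene. From Pex7 to SrpRbeta, the genes on either side, 67937 bp held 11 intergenic Trr peaks of 177 to 3604 bp and 15266 bp in all. Kismet was touched by all 11, RNA Pol II by 10, Brahma by 3 and Polycomb by 2. A 308 bp peak nearest to lncRNA:CR44526 shared only 4 bp with RNA Pol II, and the 177 bp peak only 4 bp with Polycomb. The hry body itself had 136 bp in Trr and 879 bp in Polycomb.

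**Figure D5:**
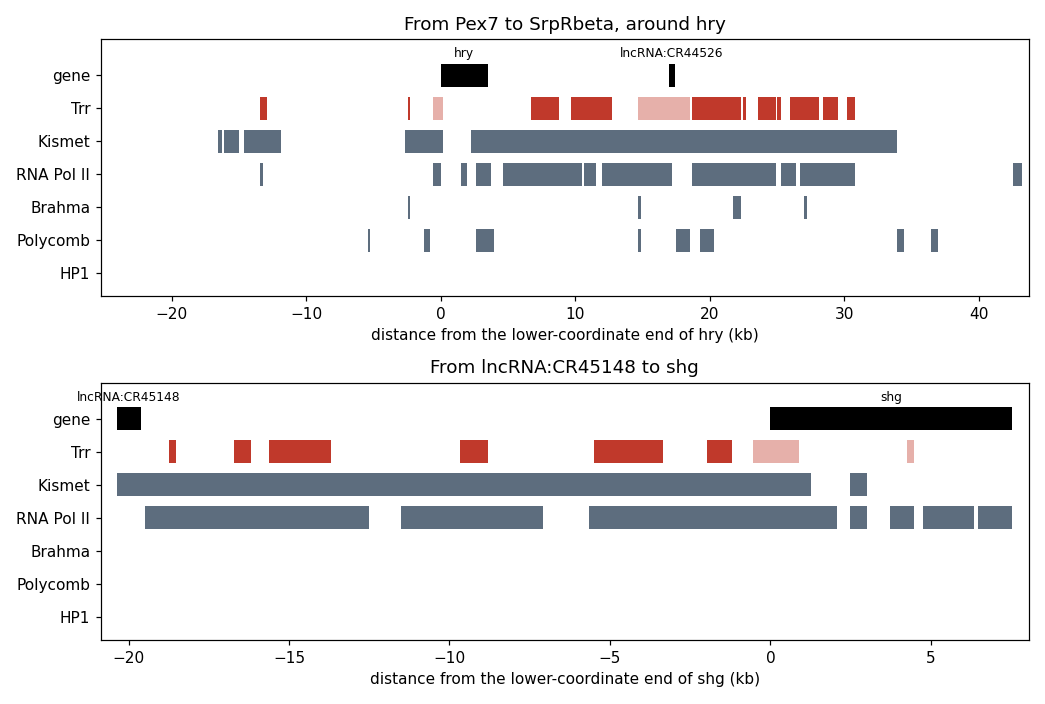
Peaks and genes as boxes along distance in kb from the lower-coordinate end of hry (top, Pex7 to SrpRbeta) and of shg (bottom). Intergenic Trr peaks are dark red, genic Trr peaks light red, genes black and other proteins grey. The 11 intergenic peaks around hry and the 6 beside shg all fall inside Kismet peaks.

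The gap between lncRNA:CR45148 and shg, the E-cadherin gene that anchors ISCs, was 19612 bp long and was wholly covered by Kismet and 86.9% by RNA Pol II. It had 6 Trr peaks of 211 to 2158 bp, each wholly inside both. The gap between lncRNA:acal and psq, which encodes a BTB-domain DNA-binding protein, had 6 peaks that filled 44.5% of 10627 bp. All 6 touched Kismet, 5 RNA Pol II, 3 Brahma and 2 HP1, though both HP1 contacts and 1 of the RNA Pol II contacts were of 4 bp. These gaps and those in the next sentences were picked from the gaps with 3 or more peaks after their values were seen, and others are left out. Near hid, a cell death activator gene, 4 peaks lay between it and lncRNA:CR45234 in a gap wholly covered by Kismet. The 2 gaps on either side of Gr93a, a gustatory receptor gene, held 4 peaks each. Gaps with 3 peaks adjoined foxo, the transcription factor of the insulin pathway, and fkh, a forkhead factor gene. All 6 of those peaks touched Kismet and RNA Pol II, though a 217 bp peak beside foxo shared only 4 bp with RNA Pol II. Over all gaps with 3 peaks, the number in contact with RNA Pol II ranged from 0, between lncRNA:CR45565 and lncRNA:CR45052, to 3. The other genes nearest to most peaks were CG12483 (5 peaks), CG14506, CG43149, CG43402, Gr93a, comm2, lncRNA:CR45234 and lncRNA:acal (4 each) and 18w, which was among 12 genes with 3.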

How the data were processed

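The authors mapped DamID-seq reads with Bowtie2 to release 6 of the genome, counted them at each GATC site with bedtools, compared each fusion with Dam alone in DESeq2, and joined runs of significant sites of positive fold change into peaks; versions are not given in the sources used here. The 7 deposited lists hold chromosome, start and end, with no count, score or p-value, so depth per sample is unknown. Values per replicate were not analysed, and 0 columns of single samples were left unused. The RNA interference samples of the series were not analysed here.

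Starts were converted to count from 1. Genes came from the RefSeq table of the same release, which has no strand, exons or sequence. A peak was intergenic with 0 bp in any gene body and touched a list when it shared at least 1 bp with it. Shares have 95% Wilson intervals and differences 95% Newcombe intervals; a difference was called where its interval excluded 0, and no p-value was computed. Interval and overlap code was tested on simulated data (Python 3.11.15, NumPy 2.4.6, matplotlib 3.10.9). The peaks and the 13 gene lists were chosen with earlier results of these data known. Named peaks are the 10 longest, the 5 farthest from a gene and the 5 that touch most lists (ties by length). Named genes flank these, are among the 10 nearest to most peaks, or belong to the lists and flank a gap with a peak. Genes outside this rule (Psc, Su(z)2, bnl, hry, shg, hid, foxo, fkh and their neighbours) were chosen after their values were seen. Alternatives were other gene sets and margins, pericentric regions left out, long peaks only, merged peaks, stricter overlap, length strata and, chosen after seeing the data, arm 3L left out.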

Additional observations from a re-analysis of the deposited data

How the results depend on the processing

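The lower RNA Pol II share and the higher Polycomb share of intergenic peaks kept their direction and an interval without 0 under every alternative run (RNA Pol II -23.1 to -5.37 points, Polycomb 4.55 to 6.03). The number of intergenic peaks moved to 258 with gene bodies extended by 500 bp and to 147 with peaks of at least the median Trr length. The median distance became 1618 bp with protein-coding genes only, 2246 bp with extended bodies and 1353 bp with long peaks. The Kismet share became 93.8% with extended bodies and 96.6% with long peaks, and the RNA Pol II and Brahma shares 91.2 and 29.9% with long peaks. With at least 50% of the Trr peak overlapped, the shares were 79.4% for Kismet, 55.0% for RNA Pol II, 11% for Brahma, 5.50% for Polycomb and 1.67% for HP1. The Kismet difference excluded 0 with protein-coding genes only (3.79 points), extended bodies (13.3), pericentric regions and chromosome 4 left out (4.69) and within classes of peak length (8.07), and was 0.734 without 3L, an alternative chosen after seeing the data. The Brahma difference excluded 0 with extended bodies (6.32), 50% overlap (4.33) and within classes of peak length (5.11), and was 0.672 with merged peaks and 0.571 without 3L. The HP1 difference turned to -1.43 points with long peaks. The other 80 of 102 values stayed as they were called. The cause of these moves was not tested. No paired analysis was possible because the lists hold no values per sample, and for the same reason no replicate could be left out.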
